A study of Mus musculus with 22 samples.

Results

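The genes described are those that present antigen on MHC class II in the mouse: H2-Aa, H2-Ab1, H2-Eb1, Cd74, H2-DMa, H2-DMb1, H2-Oa, H2-Ob and Ciita. They were taken by symbol from the deposited count table, and all 9 had a row among its 55487 genes. Kidney RNA was counted from the 3′ ends of polyadenylated transcripts in 22 male wild-type C57BL/6JRj mice. The groups were 6 young mice aged 4 months, 8 old mice aged 21 months and 8 nicotinamide-fed old mice, also aged 21 months. The food of the last group held nicotinamide for 14 weeks (1.6 g per kg food, a dose of 200 mg per kg body weight per day). Nicotinamide, a vitamin B3 compound, is used by cells to make NAD. The labels mark the young mice and the old mice without nicotinamide as controls. They do not say how the mice were assigned or whether any shared a cage.

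MHC class II molecules are pairs of an alpha and a beta chain that show peptides from the endosome to T cells bearing CD4. In the b haplotype of C57BL/6 mice the surface molecule is I-A, made of H2-Aa and H2-Ab1. H2-Eb1 encodes the beta chain of I-E, whose alpha chain gene H2-Ea is not transcribed in this haplotype. The invariant chain, encoded by Cd74, fills the groove until proteases cut it down. H2-DM, made from H2-DMa and a DM beta chain, then exchanges the remaining piece for peptide, and H2-DO, the pair of H2-Oa and H2-Ob, restrains H2-DM, chiefly in B cells. Ciita is the coactivator on which transcription of the family depends. Dendritic cells, macrophages and B cells carry class II at rest, and interferon gamma can bring it out in other cells, kidney tubule and endothelium included.

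Class II promoters are known for a shared module in which an X box and a Y box lie at a fixed distance. The windows before the annotated start of transcription were read from RefSeq (GRCm38.p6) to show this module in the genes measured here. Of the 9 genes, 6 matched the table, with 7 windows, and H2-Ab1, Cd74 and Ciita were not in it. Each line below gives the last 150 bases before the start, 5′ to 3′ on the strand of the gene. Capitals mark the X-like letters (AG, any 2 bases, AC, any 2 bases, then ATG) and the Y-like letters ATTGG (the inverted CCAAT box).
H2-Eb1, chr17:34305717-34305866, plus strand: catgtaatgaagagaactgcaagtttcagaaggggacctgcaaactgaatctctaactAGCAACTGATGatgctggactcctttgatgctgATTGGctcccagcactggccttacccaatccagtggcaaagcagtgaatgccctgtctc
H2-DMb1, chr17:34153041-34153190, plus strand: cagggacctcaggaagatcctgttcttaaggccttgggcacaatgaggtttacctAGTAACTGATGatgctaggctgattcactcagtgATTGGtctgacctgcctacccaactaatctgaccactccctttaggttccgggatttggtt
H2-Ob, chr17:34238755-34238904, plus strand: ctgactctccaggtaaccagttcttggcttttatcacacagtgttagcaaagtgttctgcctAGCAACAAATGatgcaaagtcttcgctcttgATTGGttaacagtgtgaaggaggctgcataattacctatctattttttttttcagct
H2-Aa, chr17:34287824-34287973, minus strand: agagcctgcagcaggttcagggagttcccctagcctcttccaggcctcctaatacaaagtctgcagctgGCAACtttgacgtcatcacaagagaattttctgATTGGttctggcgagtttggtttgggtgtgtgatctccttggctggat
H2-Oa, chr17:34092229-34092378, plus strand: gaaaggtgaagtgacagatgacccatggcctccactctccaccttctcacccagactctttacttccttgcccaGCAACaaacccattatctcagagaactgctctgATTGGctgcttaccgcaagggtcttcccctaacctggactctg

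In H2-Eb1, H2-DMb1 and H2-Ob the X-like letters were followed by the Y-like letters after 22, 23 and 20 bases. Windows with both patterns 10 to 30 bases apart on the same strand made up 0.067% of all 32851 windows. These were 22 windows of 21 genes (both strands searched in the 250 bases before the start). H2-Eb2 was among them, but most of these genes are not class II genes, Mki67, Hnrnpa1 and G3bp1 for example. The X-like letters alone were in 2.6% of windows and the Y-like letters alone in 33.8%. H2-Aa and H2-Oa lacked this pairing. H2-Oa does hold the full X-like letters, left in lower case near the start of its line because no Y-like letters follow within that distance. The capitals of these 2 genes mark a shorter form, GNNAC (N is any base) followed by ATTGG after 15 to 35 bases, which was chosen after the sequences were seen and is in 9.78% of windows. The 2 windows of H2-DMa held neither pairing. A match of letters describes the sequence only.

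**Figure D1:**
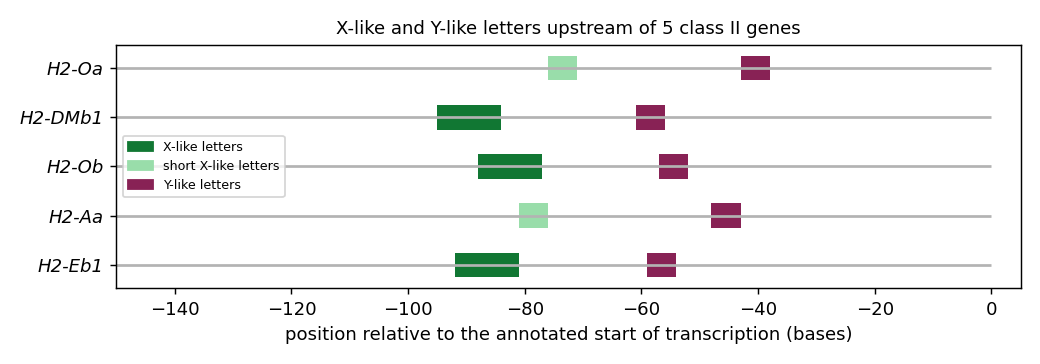
Position of the X-like letters (dark green, or light green for the shorter form) and of the Y-like letters (plum) in bases before the annotated start of transcription, for 5 class II genes. The first base of the Y-like letters lies 43 to 61 bases before the start in all 5.

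In the RefSeq order of genes, 7 of the 9 stand in 1 region of chromosome 17, as H2-Oa, H2-DMa, H2-DMb1, H2-Ob, H2-Ab1, H2-Aa and H2-Eb1, with the class I genes Psmb9, Tap1, Psmb8 and Tap2 between H2-DMb1 and H2-Ob. Libraries held 3351065 to 8319865 gene counts, young replicate 6 the fewest. Levels are given as CPM, counts per 1000000 of the TMM-scaled library total. A 3′ library counts transcripts by their ends, so levels are not divided by gene length. Markers of kidney epithelium (8 genes, Slc34a1 and Umod among them) summed to 5957 to 7754 CPM in every kidney. In RNA of whole tissue, more cells of a type and more RNA per cell cannot be told apart.

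In old kidneys the classical class II chains and the invariant chain stood at 2.20 to 2.27 times their young level. Of the 8 class II genes with enough counts to test, 6 rose with age and 0 fell (edgeR, adjusted p below 0.05). Among all 14683 tested genes 3.9% rose and 3.15% fell. H2-Ob, counted among the 6, had 0 to 7 counts per young kidney. It failed the filter on low counts with only old and young kidneys in the fit, so its call rests on the fit of all groups. The median log2 fold change of the 8 was 1.15, beside 0.01 for all tested genes. Nicotinamide changed 0 of the 8 in edgeR, in DESeq2 and in limma-voom, and 0 had an unadjusted p below 0.05 in edgeR. In that comparison 0.0272% of all tested genes passed, and 6.18% had an unadjusted p below 0.05.

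H2-Aa, the alpha chain of I-A, ranged from 116 to 163 CPM in young kidneys (median 136) and from 215 to 424 in old kidneys (median 294). All 8 old kidneys lay above the highest young kidney. The log2 fold change was 1.14 ± 0.12 (SE; 95% interval 0.90 to 1.37; edgeR adjusted p = 1.16e-07), and in p H2-Aa ranked 2 among all genes. Groups that do not overlap in this direction were found for 1.33% of all tested genes.

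H2-Ab1, the beta chain of I-A, ranged from 104 to 144 CPM in young kidneys (median 129) and from 206 to 436 in old kidneys (median 263). It too did not overlap between the ages. Its log2 fold change was 1.15 ± 0.16 (edgeR adjusted p = 0.000189). H2-Eb1, the I-E beta chain, ranged from 126 to 173 CPM in young (median 135) and from 218 to 482 in old kidneys (median 302), again with no overlap. It rose 2.25-fold (log2 1.17 ± 0.14, edgeR adjusted p = 7.84e-06).

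Cd74, the invariant chain, ranged from 86.5 to 132 CPM in young kidneys (median 99.5) and from 174 to 347 in old kidneys (median 227). The ages did not overlap here either, and the rise was 2.27-fold (log2 1.18 ± 0.14, edgeR adjusted p = 1.08e-05). The fold changes of these 4 genes thus lay between 2.20 and 2.27. Old replicate 2 had the highest level of all 4 among the old kidneys and old replicate 4 the lowest.

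The shares of the 4 genes in their sum were close in young and old kidneys. H2-Aa made up 26.5% ± 0.892 (SD, n = 6) of the sum in young and 26.3% ± 1.09 (n = 8) in old kidneys, and Cd74 20.4% ± 2.41 and 20.7% ± 1.26. The log2 ratio of H2-Aa to H2-Ab1, to H2-Eb1 and to Cd74 differed between old and young by 0.00, −0.02 and −0.03 (exact permutation p = 0.958, 0.686 and 0.726, two-sided).

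**Figure D2:**
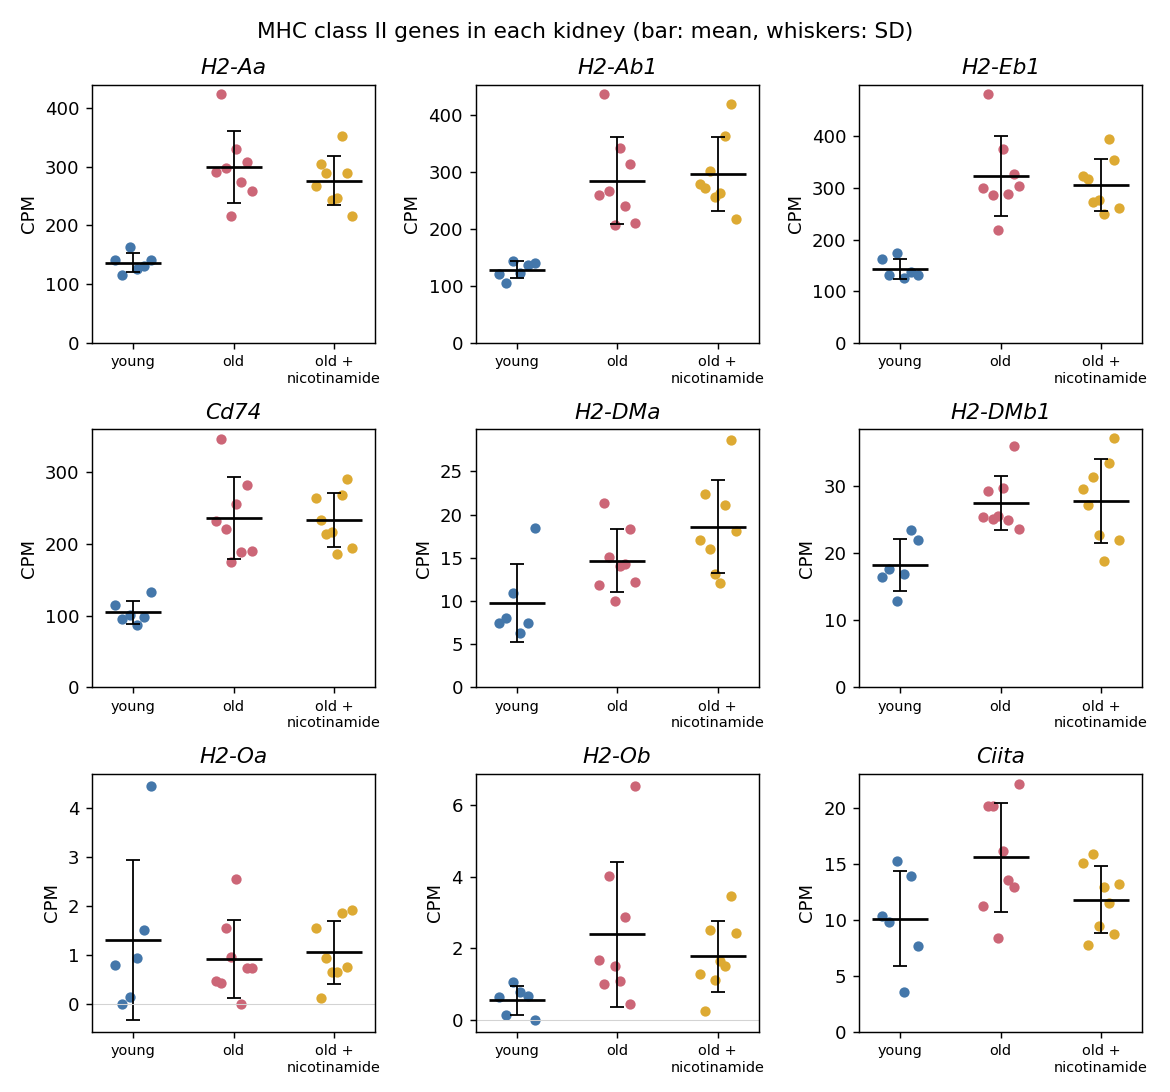
Level of each class II gene in CPM (vertical axis) in each kidney (points) of the 3 groups, with the mean (bar) and SD (whiskers). For H2-Aa, H2-Ab1, H2-Eb1, Cd74 and H2-DMb1 all old kidneys lie above all young kidneys, while for the other 4 genes the ages overlap.

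The peptide exchange factor showed smaller values. H2-DMb1, a DM beta chain, ranged from 12.9 to 23.5 CPM in young kidneys (median 17.3) and from 23.6 to 36.0 in old kidneys (median 25.5). Its lowest old kidney lay just above the highest young one, and it rose 1.52-fold (log2 0.60 ± 0.15, edgeR adjusted p = 0.0116). Its neighbour H2-DMb2 encodes a near-identical beta chain, so reads of both copies may be divided between them. H2-DMb2 stood at 1.37 ± 1.26 CPM in young and 4.53 ± 1.54 CPM in old kidneys (log2 1.78 ± 0.50, edgeR adjusted p = 0.0204).

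H2-DMa, the DM alpha chain, ranged from 6.27 to 18.5 CPM in young kidneys (median 7.69) and from 9.99 to 21.3 in old kidneys (median 14.2). Only 1 old kidney lay above the highest young kidney, young replicate 6, which also had the fewest counts. The log2 fold change was 0.63 ± 0.22 and did not pass (edgeR adjusted p = 0.0719). Without young replicate 6 it was 0.87 (edgeR adjusted p = 0.0102), and without old replicate 4 it was 0.69 (adjusted p = 0.0475).

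The log2 ratio of H2-Aa to H2-DMa was 3.90 ± 0.51 in young and 4.37 ± 0.17 in old kidneys. The difference of 0.47 passed (exact permutation p = 0.00866, adjusted p = 0.0390 over 18 ratios), and each of the 8 old kidneys exceeded the mean of the young. Without young replicate 6 the difference was 0.27 (adjusted p = 0.0900). Leaving out any of 9 other kidneys (young replicates 2 or 3, or an old kidney other than replicate 7) also lost the call, with a difference of 0.43 to 0.48. The ratio of H2-Aa to H2-DMb1 differed by 0.52 (exact permutation p = 0.0196, adjusted p = 0.0706), and passed without young replicate 3 (adjusted p = 0.0210) or old replicate 7 (0.0482).

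H2-DO, the partner that restrains H2-DM, was near the limit of detection. H2-Oa had 0 to 14 counts per kidney and did not pass the filter on low counts. Young kidneys held 0 to 4.46 CPM (median 0.864), old kidneys 0 to 2.55 CPM (median 0.731) and nicotinamide-fed kidneys 0.121 to 1.91 CPM (median 0.848), and all groups overlapped. The difference of old from young was −0.38 CPM (exact permutation p = 0.631), not detectable at this depth.

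Counts of H2-Ob ran from 0 to 7 in the young libraries and from 3 to 36 in the old. It ranged from 0 to 1.05 CPM in young (median 0.651) and from 0.441 to 6.54 in old kidneys (median 1.59), with 6 of 8 old kidneys above all young ones. Its log2 fold change of 2.01 ± 0.65 passed narrowly (95% interval 0.70 to 3.32; edgeR adjusted p = 0.0499), and 19 of 32 alternatives lost the call (adjusted p up to 0.225). Old replicate 8 was highest in H2-Ob and in summed B cell markers, both with the immunoglobulin gene Ighm (828 CPM) and without it (30.9 CPM). Old replicate 7, lowest among old kidneys in H2-Ob, held 608 CPM of these markers, or 17.5 CPM without Ighm.

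Ciita, the coactivator of the family, did not pass. It ranged from 3.60 to 15.3 CPM in young kidneys (median 10.1) and from 8.35 to 22.2 in old kidneys (median 14.9), with 4 of 8 old kidneys above all young ones. The log2 fold change was 0.61 ± 0.24 (95% interval 0.13 to 1.10; edgeR adjusted p = 0.120), and it stayed above the threshold in all 33 alternatives (lowest adjusted p 0.0562). The ratio of H2-Aa to Ciita differed between the ages by 0.42 log2 units (exact permutation p = 0.168, adjusted p = 0.356) and did not pass. The SD of this ratio was 0.69 in young and 0.40 in old kidneys, and the difference was 0.67 without young replicate 4 (adjusted p = 0.0644). Ciita is transcribed from several promoters in different cell types, which counts at 3′ ends do not separate.

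With nicotinamide the class II genes stayed near the level of the old kidneys. H2-Aa ranged from 217 to 352 CPM (median 278) in nicotinamide-fed kidneys, within the range of the old kidneys. Its log2 fold change was −0.12 ± 0.10 (95% interval −0.33 to 0.09; edgeR adjusted p = 0.912), and it was −0.030 without old replicate 2. H2-Ab1 ranged from 217 to 419 CPM (median 275), with a log2 fold change of 0.06 (−0.25 to 0.36). H2-Eb1 ranged from 249 to 395 CPM (median 296), with −0.08 (−0.33 to 0.17), and Cd74 from 186 to 291 CPM (median 225), with −0.02 (−0.27 to 0.24). These intervals leave room for a fall of at most 0.33 or a rise of at most 0.36 on the log2 scale, smaller than the rises with age.

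For H2-DMa, Ciita and H2-Ob the intervals were wider, while that of H2-DMb1 was of similar width. H2-DMa ranged from 12.1 to 28.7 CPM (median 17.6) with nicotinamide, and 2 of 8 kidneys lay above all old ones. Its log2 fold change was 0.34 ± 0.19 (95% interval −0.05 to 0.73; edgeR adjusted p = 0.827). Ciita ranged from 7.77 to 15.9 CPM (median 12.2), and 1 of 8 kidneys lay above the old mean. Its log2 fold change was −0.40 ± 0.22 (−0.84 to 0.04; edgeR adjusted p = 0.821). H2-DMb1 ranged from 18.8 to 37.3 CPM (median 28.4; log2 0.02, −0.26 to 0.29) and H2-Ob from 0.243 to 3.45 CPM (median 1.58; log2 −0.42, −1.50 to 0.65). Without old replicate 8 the value for H2-Ob was −0.020, and without nicotinamide replicate 7 it was −0.63.

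Of 9 ratios compared, 1 passed for nicotinamide against old. The log2 ratio of H2-Aa to H2-DMa differed by −0.44 (3.93 ± 0.34 against 4.37 ± 0.17; exact permutation p = 0.00389, adjusted p = 0.0240), and 0 of 8 nicotinamide-fed kidneys lay above the old mean. The call was lost without old replicate 1, 4, 5 or 8 (adjusted p of 0.0526 to 0.0618), while the difference stayed between −0.50 and −0.35 whichever kidney was left out. The ratio of H2-Aa to H2-Ab1 differed by −0.18 (exact permutation p = 0.0277, adjusted p = 0.0831) and passed without nicotinamide replicate 2 (−0.22, adjusted p = 0.0287). Nicotinamide replicate 7 had the lowest value of this ratio (−0.53), and without it the difference was −0.12 (adjusted p = 0.150).

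Nicotinamide-fed old kidneys also stood apart from young ones in 6 of the 8 tested genes, all higher, where 4.73% of all tested genes were higher and 3.96% lower. In 4 of them (H2-Aa, H2-Ab1, H2-Eb1 and Cd74) the groups did not overlap, as in 1.13% of all tested genes. This comparison shares its kidneys with the other comparisons. The 6 genes were not the same as for age alone: H2-DMa passed (log2 0.97 ± 0.22, edgeR adjusted p = 0.00301) and H2-Ob did not (1.59 ± 0.65, adjusted p = 0.125). Ciita was at 0.21 ± 0.24 (adjusted p = 0.673).

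**Figure D3:**
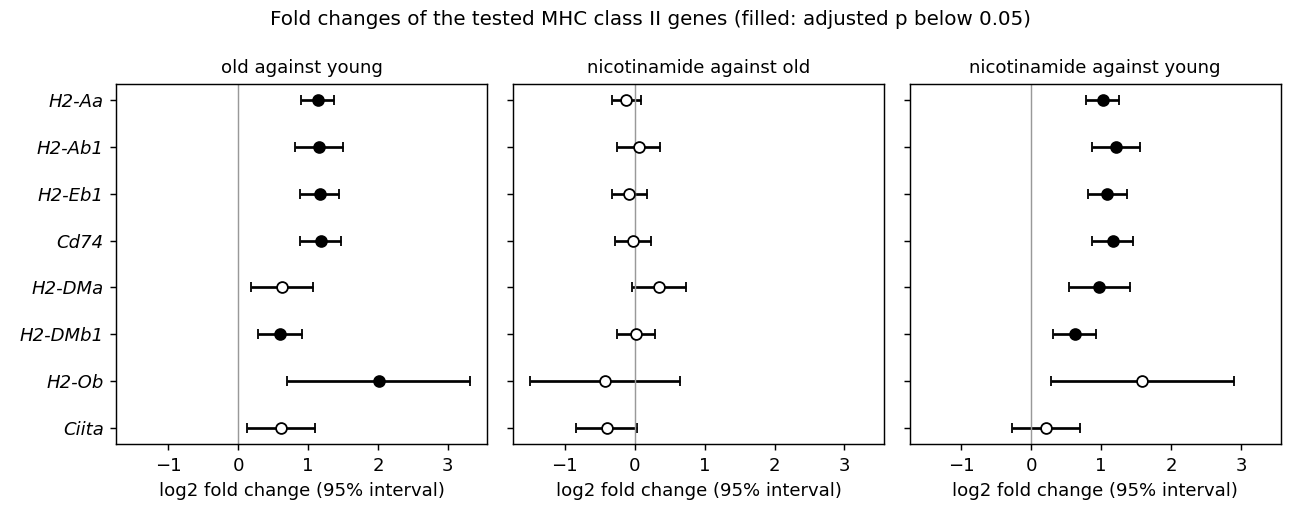
Log2 fold change (horizontal axis, with its 95% interval) of the 8 tested class II genes in the 3 comparisons; filled circles have an adjusted p below 0.05 in edgeR. The 4 upper genes lie between 1.02 and 1.21 in both comparisons with young kidneys and between −0.12 and 0.06 for nicotinamide against old.

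With group differences removed, the classical genes varied together from kidney to kidney. After the group mean was removed from each log2 level, H2-Aa correlated with H2-Eb1 (Pearson r = 0.897, Spearman rho = 0.775, n = 22), with H2-Ab1 (r = 0.865, rho = 0.862) and with Cd74 (r = 0.780, rho = 0.774). Permutation within groups gave adjusted p of 7e-05, 7e-05 and 0.000443 for r and of 0.000467, 7e-05 and 0.000467 for rho over the 7 relations tested. H2-DMa followed with r = 0.606 and rho = 0.651 (permutation adjusted p = 0.00434 and 0.00332). Without old replicates 2 and 4, the kidneys farthest from the median in H2-Aa, r was 0.803 for H2-Eb1, 0.788 for H2-Ab1, 0.637 for Cd74 and 0.493 for H2-DMa. In the young, old and nicotinamide-fed kidneys taken alone, r with Cd74 was 0.435, 0.932 and 0.681.

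For H2-DMb1, Ciita and H2-Ob the relation to H2-Aa did not pass. H2-DMb1 had r = 0.357 and rho = 0.470 (permutation adjusted p = 0.136 and 0.0522), but the groups differed in sign, with r of −0.480 in young, 0.494 in old and 0.746 in nicotinamide-fed kidneys. For Ciita r was 0.285 and rho 0.151 (permutation adjusted p = 0.223 and 0.594), and r was 0.04 without the same 2 kidneys. By group, r for Ciita was 0.452 in young, 0.553 in old and −0.246 in nicotinamide-fed kidneys. H2-Ob had r = −0.212 and rho = −0.127 (permutation adjusted p = 0.393 and 0.594). The kidneys also differed in depth and in leukocyte markers, whose part in these relations was not tested.

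The genes most like the classical class II genes were sought among 10865 other genes with a mean of at least 5 CPM, by r with the mean of H2-Aa, H2-Ab1, H2-Eb1 and Cd74 over the 22 kidneys after group means were removed. The 10 highest were Ctss (r = 0.826), Lcp1 (0.800), Pld4 (0.767), D16Ertd472e (0.763), C1qb (0.752), Laptm5 (0.745), C1qa (0.745), Adam19 (0.744), Igtp (0.727) and Fstl1 (0.720). Ctss encodes cathepsin S, the protease that makes the last cut in the invariant chain. It stood at 24.2 ± 3.26 CPM in young and 61.0 ± 21.1 in old kidneys (log2 1.34 ± 0.25, edgeR adjusted p = 0.00220). C1qa and C1qb are complement genes of macrophages, Lcp1 and Laptm5 are made by leukocytes, and Igtp is a GTPase induced by interferon. Of the 10 genes, Igtp (log2 0.27 ± 0.52, edgeR adjusted p = 0.835) and Fstl1 (0.47 ± 0.15, adjusted p = 0.0582) did not pass for age, and none passed for nicotinamide in edgeR.

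Other genes of the pathway were read from lists, for old against young unless stated. Among all tested genes 3.9% rose and 3.15% fell, so a list with only 1 gene past stands near that share. The lists were not tested as sets. Among 16 genes of class II transcription, 3 rose and 0 fell (median log2 fold change 0.14). These were the myeloid and B cell factors Irf8 (33.1 ± 5.42 and 72.2 ± 15.4 CPM; log2 1.13 ± 0.13), Spi1 (4.52 ± 1.21 and 13.7 ± 3.70; 1.60 ± 0.24) and Irf4 (0.399 ± 0.599 and 2.51 ± 1.81; 2.50 ± 0.75), with edgeR adjusted p of 1.16e-07, 2.48e-05 and 0.0345. Irf4, scarce in young kidneys, passed the filter on low counts through the kidneys of old mice. The proteins that bind the promoter module did not pass. The X box factor Rfx5 was at 0.13 ± 0.18 and its partners Rfxap and Rfxank at −0.36 ± 0.30 and −0.09 ± 0.25. The Y box subunits Nfya, Nfyb and Nfyc lay between −0.16 and 0.07. These 6 were named after their values were seen.

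Interferon gamma signalling had 1 of 16 tested genes past, the receptor chain Ifngr1 (21.5 ± 5.29 and 34.6 ± 3.80 CPM; log2 0.67 ± 0.14, edgeR adjusted p = 0.00158), and a median of 0.48. Next in p were the feedback inhibitor Socs1 (1.57 ± 0.62, edgeR adjusted p = 0.121) and the GTPase Gbp3 (1.45 ± 0.56, adjusted p = 0.127). Ifng itself was 29 counts in all 22 kidneys and was not tested. With nicotinamide 0 of the 16 passed in edgeR, and summed levels were 412 to 1183 CPM, highest in nicotinamide replicate 7.

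The proteases of the endosome moved in both directions. Of 13 genes, 3 rose and 2 fell (median −0.02). Ctss, Ctsc (log2 0.81, edgeR adjusted p = 0.00445) and the protease inhibitor Cst3 (0.42, adjusted p = 0.000987) rose. Ctsl, which cuts the invariant chain in thymic epithelium, fell from 315 ± 38.1 to 232 ± 24.6 CPM (−0.44, edgeR adjusted p = 0.000728), as did the endopeptidase Lgmn (−0.33, adjusted p = 0.0127). The reductase Ifi30, which opens disulfide bonds of antigens, was at 48.9 ± 4.81 and 42.9 ± 2.71 CPM (−0.19, adjusted p = 0.261). Ctsc, Lgmn and Ifi30 were named after their values were seen.

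Among 11 genes of surface turnover and of partners of the invariant chain, 1 rose, the CD74 coreceptor Cd44 (5.41 ± 2.63 and 14.9 ± 4.92 CPM; log2 1.44 ± 0.28, edgeR adjusted p = 0.00107). The chemokine receptor Cxcr4 was at 1.43 ± 0.55 (adjusted p = 0.110) and the CD74 ligand Ddt at −0.21 ± 0.10 (adjusted p = 0.247). The ligase March1, which removes class II from the surface, was at 0.51 (adjusted p = 0.319) and the ligand Mif at −0.19 (adjusted p = 0.465). Both were named after their values were seen. The list had a median of 0.02.

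Of 5 tested costimulatory and receptor genes, 2 rose (median 1.11). They were the ligand Icosl (log2 1.11 ± 0.29, edgeR adjusted p = 0.0129) and the class II coreceptor Cd4 (0.485 ± 0.627 and 2.89 ± 1.75 CPM; 2.53 ± 0.67, adjusted p = 0.0158). Cd4 too was scarce in young kidneys and passed the filter on low counts through the kidneys of old mice. Cd274, which encodes PD-L1, was at 0.98 ± 0.34 (adjusted p = 0.0814). The remaining class II genes were scarce. H2-Eb2 had 44 counts in all 22 kidneys and was not tested, and the H2-Ea row (H2-Ea-ps) had 0 of 139252254 counts, which allows up to 0.0215 CPM over all kidneys by counting error alone.

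MHC class I presentation rose in 3 of 14 genes and fell in 0 (median 0.52). The light chain B2m was at 560 ± 22.1 and 948 ± 202 CPM (log2 0.76 ± 0.21, edgeR adjusted p = 0.0330). Next came the proteasome subunit Psmb9 at 9.81 ± 2.55 and 19.9 ± 3.96 CPM (edgeR adjusted p = 0.0342) and the peptidase Erap1 at log2 0.53 ± 0.17 (adjusted p = 0.0435). Psmb9 stands between H2-DMb1 and H2-Ob on the chromosome. Its neighbours Tap1, Psmb8 and Tap2 did not pass (0.81, 1.13 and 0.51, edgeR adjusted p = 0.0820, 0.0887 and 0.113), and were named for their place on the chromosome. In nicotinamide against old 0 genes passed in edgeR in any of these pathway lists.

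Most markers of cells that carry class II moved in the same direction with age, and their part in the rise of the class II genes was not tested. Among all tested genes 3.9% rose. Pan-leukocyte markers rose in 7 of 7 genes (median 1.29) with sums of 56.3 to 81.8 CPM (young), 120 to 213 CPM (old) and 126 to 315 CPM (nicotinamide). Macrophage markers rose in 11 of 14 tested genes (median 1.40), with sums of 247 to 275, 363 to 636 and 389 to 696 CPM. Dendritic cell markers rose in 4 of 11 (median 0.80), with sums of 46.1 to 75.8, 78.6 to 107 and 71.1 to 126 CPM. Of 11 B cell markers listed, 6 were tested and 2 rose, Ighm and Fcrla (median 1.76), with sums of 17.7 to 134, 103 to 828 and 58.9 to 519 CPM. Fcrla was scarce in young kidneys (0.183 ± 0.255 CPM, against 1.41 ± 1.27 in old). It passed the filter on low counts through the kidneys of old mice. The defining marker Cd79a was at 21 counts in all kidneys and was not tested. Ighm made up 94.6% ± 2.10 (SD, n = 8) of this sum in old and 79.4% ± 17.8 (n = 6) in young kidneys. The B cell surface genes Ms4a1 (log2 −0.10, edgeR adjusted p = 0.970) and Cr2 (0.22, adjusted p = 0.833) did not pass.

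The other marker lists were plasma cells (4 of 8 rose, sums of 591 to 1417, 1926 to 5025 and 404 to 4263 CPM) and T cells (1 of 8, Cd2; 9.72 to 21.97, 19.2 to 50.9 and 20.7 to 253 CPM). Endothelial markers rose in 1 of 8 (median 0.14; 486 to 544, 509 to 598 and 499 to 661 CPM), and markers of injured tubule in 4 of 7 (median 1.39; 335 to 476, 532 to 700 and 518 to 1100 CPM). No marker of any list passed for nicotinamide against old in edgeR. In that comparison 0 of 6 tested B cell markers and 0 of 8 plasma cell markers had a positive log2 fold change (medians −1.02 and −0.90). T cell markers were positive in 8 of 8 (median 0.74). The medians were 0.02 for pan-leukocyte, 0.10 for macrophage and −0.01 for dendritic cell markers.

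H2-Aa was also set against these sums in each kidney. Its log2 ratio to the pan-leukocyte sum was 0.93 ± 0.16 in young and 0.84 ± 0.19 in old kidneys, and the difference of −0.09 missed the threshold (exact permutation, p = 0.372 and 0.550 after adjustment). The ratios to the macrophage and dendritic cell sums depended on which genes were summed. Relative to all macrophage markers H2-Aa was higher in old by 0.24 (exact permutation p = 0.00400, adjusted p = 0.0240). This sum holds Csf1r (57.2 ± 11.4 and 68.5 ± 14.8 CPM) and Mertk (86.5 ± 6.21 and 97.8 ± 9.51 CPM), abundant genes that did not pass (edgeR adjusted p = 0.236 and 0.255) and that made up 56.3% ± 2.68 of it in young and 35.6% ± 5.47 in old kidneys. Without these 2 genes the direction turned, and H2-Aa was lower in old relative to the rest by −0.32 (exact permutation p = 0.000999, adjusted p = 0.0150). They were left out after the values were seen, because they were abundant and did not pass. The genes that remain mostly rose with age, so this choice itself lowers the difference and the p does not test a reversal. With Csf1r and Mertk the call was lost without young replicate 2 or old replicate 1, 5 or 8 (adjusted p of 0.0525 to 0.0606). Relative to all dendritic cell markers H2-Aa was higher in old by 0.49 (exact permutation p = 0.00167, adjusted p = 0.0240). Cd24a did not pass (36.4 ± 10.7 and 48.2 ± 8.32 CPM, edgeR adjusted p = 0.269) and made up 60.4% ± 9.30 of that sum in young and 52.7% ± 6.22 in old kidneys. Without it the difference was 0.21 (exact permutation p = 0.220, adjusted p = 0.396). Cd24a was chosen in the same way, so this choice also lowers the difference.

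**Figure D4:**
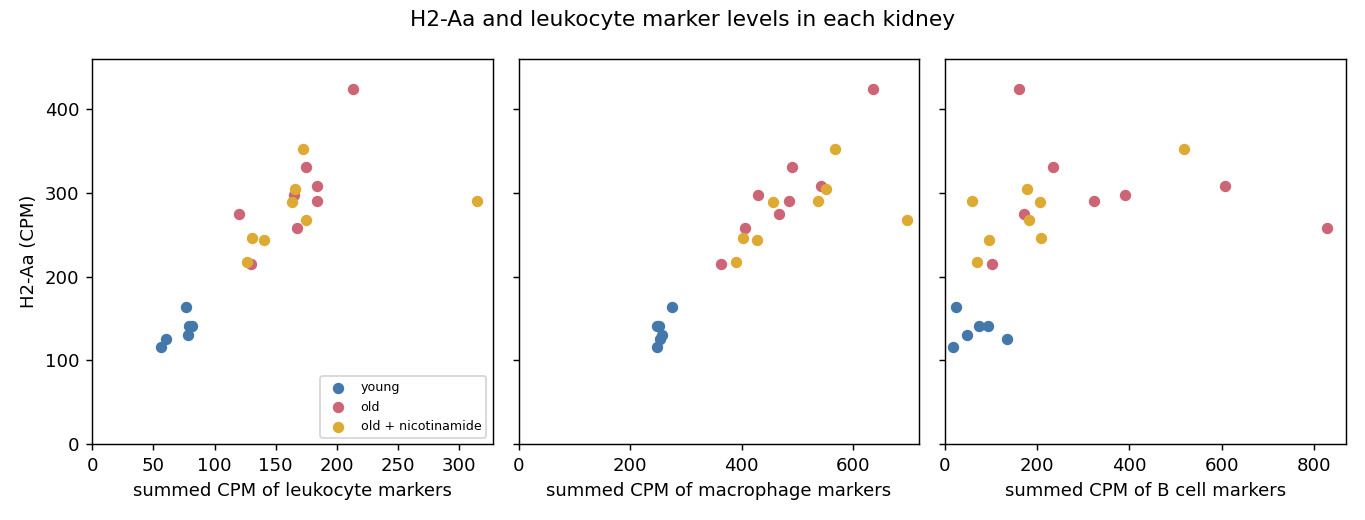
H2-Aa in CPM (vertical axis) against the summed CPM of pan-leukocyte, macrophage and B cell markers (horizontal axes) in each kidney, coloured by group. The 6 young kidneys lie at the lower left in the first 2 panels, and nicotinamide replicate 7 has the highest pan-leukocyte sum (315 CPM) at 290 CPM of H2-Aa.

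**Figure D5:**
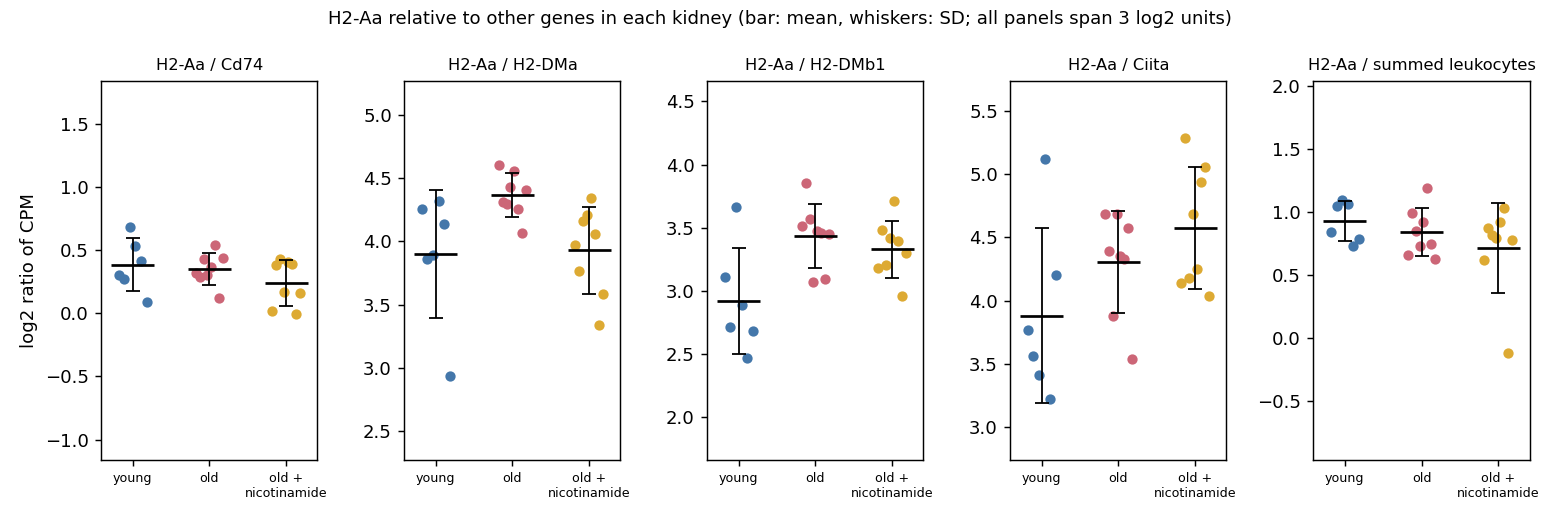
Log2 ratio of H2-Aa to Cd74, H2-DMa, H2-DMb1, Ciita and the pan-leukocyte sum (vertical axes) in each kidney, with mean (bar) and SD (whiskers) per group. The ratio to Cd74 is at 0.38 in young and 0.35 in old kidneys. That to H2-DMa is at 3.90, 4.37 and 3.93 in young, old and nicotinamide-fed kidneys, while mean H2-DMa itself is at 9.74, 14.7 and 18.6 CPM. Young replicate 6 has the lowest ratio to H2-DMa (2.93), and both comparisons share the old kidneys.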

How the data were processed

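The authors deposited 1 table of raw counts, with mouse Ensembl genes in rows and 22 libraries in columns. STAR and HTSeq made it, per the submitters' processing notes. No source used here gives their versions, strand setting or handling of duplicates. Those notes name GRCh38, a human build, while the identifiers are of mouse, so coordinates are given only for RefSeq promoter windows. The 5 HTSeq summary entries were left out; reads in no gene made up 19.1% to 24.7% of a library and ambiguous reads 0.512% to 0.569%. GENCODE M21 gave symbols for 55141 identifiers, and 0 columns lacked a sample.

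Genes were filtered with filterByExpr (minimum count 10, minimum total 15), which kept 14683 genes. Young, old and nicotinamide-fed kidneys shared 1 model (edgeR 4.0.16, quasi-likelihood F test, TMM factors, robust dispersions), and each comparison was a two-sided contrast, with Benjamini-Hochberg adjustment over all tested genes and a threshold of 0.05. The SE was obtained by dividing the log2 fold change by the root of F. Ratios and H2-Oa were tested by exact permutation, and relations by 100000 permutations within groups; 1e-05 is the smallest p these can give before adjustment. DESeq2 1.42.0 and limma-voom (limma 3.58.1) were alternatives. The labels do not say how the animals were assigned or whether any shared a cage, so p-values measure the spread between these libraries. From each of the 7 pathway lists the 3 genes of lowest p were named. The members, lists and alternatives were chosen with earlier results of these data known. The ratios and their reduced marker sums were added after the values were seen. So were the runs without the highest and lowest old kidneys, without young replicate 6 and nicotinamide replicate 7, and with H2-DMb1 and H2-DMb2 summed. Tests of single kidney epithelium markers are not reported here.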

Additional observations from a re-analysis of the deposited data

Results flagged for a closer look

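H2-Oa in young replicate 6 stood at 4.46 CPM (14 counts), while the next young kidney was at 1.51 CPM. It is the only value among 27 gene and group combinations whose gap to its neighbour was too large for its group by Dixon's test; chance gives such a gap in about 1 in 20 groups. This kidney had the fewest counts of all and was also the highest young kidney in H2-DMa.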

How the results depend on the processing

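The rises of H2-Aa, H2-Ab1, H2-Eb1, Cd74 and H2-DMb1 with age kept direction and call in each alternative run (33 for the first 4, 34 for H2-DMb1), with log2 fold changes of 1.05 to 1.19, 1.04 to 1.21, 1.06 to 1.22, 1.08 to 1.25 and 0.51 to 0.71. The number of class II genes past the threshold with age was 5 to 7, and it was 0 for nicotinamide against old and 6 against young in all 33. H2-DMa gained its call with age in 5 alternatives, and H2-Ob, not tested with only its 2 groups in the fit, lost it in 19. The cause was not tested.

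Over all genes, leaving out 1 kidney gave 668 to 1305 genes past for age (main 1034), 1 to 9 for nicotinamide against old (main 4) and 835 to 1438 against young (main 1277). For nicotinamide against old there were 7 genes without a filter, 10 in DESeq2, 2 with non-robust dispersions, 1 without old replicates 2 and 4 and 2 without young replicate 6 and nicotinamide replicate 7. Without young replicate 6, old replicate 7 and nicotinamide replicates 1 and 7, 801 passed against young.

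Values near 0 changed sign for nicotinamide against old, with no call in any setting. H2-Ab1 was at −0.0098 without the 4 kidneys and at −0.031 without young replicate 6 and nicotinamide replicate 7. Cd74 was at 0.0011 in limma-voom and 0.035 without old replicates 2 and 4. H2-DMb1 was at −0.00047 in limma-voom, −0.017 without the 4 kidneys, −0.054 without young replicate 6 and nicotinamide replicate 7, and −0.037 when summed with H2-DMb2. With 1 kidney left out, H2-Aa ranged from −0.18 to −0.030, H2-Ob from −0.63 to −0.020, H2-Ab1 from −0.031 to 0.17, H2-Eb1 from −0.14 to 0.028, Cd74 from −0.069 to 0.082 and H2-DMb1 from −0.054 to 0.084. The age difference in the ratio of H2-Aa to H2-Ab1 ranged from −0.027 to 0.030, to H2-Eb1 from −0.048 to 0.014 and to Cd74 from −0.091 to 0.028. To the macrophage sum it was −0.32 without Csf1r and Mertk, which were left out because they did not pass with age, against 0.24 with them.

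The labels state no pairing of the replicate numbers. Over group-centred levels, 20 pairs with equal numbers had correlations of −0.082 to 0.0587, which cannot show whether a cage or batch was shared. A replicate block gave 904 genes past for age, 3 for nicotinamide against old and 1081 against young, and 5, 0 and 6 class II genes. Few counts limit H2-Oa and H2-Ob (0 to 36 per kidney).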
